A study of Mus musculus with 4 samples.

Results

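The proteasome subunit genes were taken as all genes whose symbol begins with Psma, Psmb, Psmc, Psmd, Psme, Psmf or Psmg followed by a digit, leaving out Psmb8, Psmb9 and pseudogene symbols. This gave 48 genes of 25509 in the table. The rule uses names and no measured value, but the members were chosen with earlier results of these data known. RNA was sequenced from mouse T cells: naive CD4+ cells sorted from spleen (CD25-negative, CD62L-high, CD44-low) and kept for 72 h with anti-CD3, anti-CD28 and the cytokines TGF-beta, IL-4 and TL1A. The labels call this a Th9 condition with TLA1. Wild-type (WT) and Batf3-/- cells gave 2 libraries each; Batf3-/- cells lack the AP-1 family transcription factor BATF3. Both genotypes received all of these agents, and there was no unstimulated culture. The comparison asked which transcripts depend on BATF3 in cells cultured toward the interleukin 9 secreting (TH9) state. The labels do not say that replicates came from separate mice or cultures, nor which exons the allele lacks, so the p-values reflect no more than the scatter among these 4 libraries.

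The proteasome is the protease that degrades proteins tagged with ubiquitin. Its 20S core is a barrel of alpha rings, which gate the entrance, and beta rings, which carry the proteolytic sites. The 19S cap recognizes ubiquitin chains, and its ATPases unfold the substrate and feed it into the core. Activated T cells grow and divide quickly and make heavy use of this machinery, and in immune cells some beta subunits are replaced by immunoproteasome forms that alter which peptides are cut for display on MHC class I. Transcription of the subunit genes is known to be coordinated by the factor NFE2L1, acting through antioxidant response elements.

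Libraries held 15624874 to 31098059 estimated counts, and 14131 to 14954 genes had a count. As the genotype labels state, WT libraries held 1439 and 1661 counts of Batf3 itself, and Batf3-/- libraries 17 and 8. CD4 T cell markers were present (summed 1085 to 1332 CPM, counts scaled to library size, over 5 genes). Markers of CD8, myeloid, NK and erythroid cells summed to at most 9.09 CPM per list, with the myeloid marker Lyz2 at 0. Of B cell markers, Cd79b was at 9.62 to 13.1 CPM, Cd79a at no more than 0.255 CPM and Ms4a1 at 0; their part in the results was not tested. WT replicate 1 stood slightly apart: its log2 CPM correlated at 0.971 to 0.976 with the other libraries, against 0.981 to 0.982 among those 3. Xist was at 0.214 and 0.0944 CPM in the replicate 1 libraries and at 166 and 144 CPM in the replicate 2 libraries of WT and Batf3-/-, while Y-linked genes were present in all 4. Libraries of 1 number share a title prefix (E85 or E87) whose meaning the labels do not give, so genotype ratios within each replicate number are given beside several genes and counted over all proteasome genes. In bulk RNA, fewer cells of a type and less RNA per cell cannot be told apart.

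No proteasome gene differed between Batf3-/- and WT cells past the threshold. Of the 48 genes, 46 had enough counts to be tested, and 0 were called higher and 0 lower (adjusted p under 0.05, edgeR quasi-likelihood test over 12135 genes). Over all genes tested, 0.0824% were called higher and 0.0494% lower, so 0 calls among 46 genes is near the background. At an unadjusted p under 0.05 the count was also 0 of 46, in edgeR, DESeq2 and limma-voom, against 4.80% of all genes in edgeR. These fits had genotype as the only term. With replicate number as a further term edgeR gave 1 of 46, and with a GC correction as well 3 of 46. Log2 fold changes ranged from -0.30 for Psmc6 to 0.39 for Psmb10, with a median of -0.06 beside -0.01 over all genes. The median standard error was 0.195. All 46 of the 95% intervals, taken gene by gene, lay between -0.75 and 0.87, that is, inside a 2-fold change in either direction. Read sharing limits some values: 10 of the 48 genes carried fractional counts, a sign of reads split over several loci. These were Psma5, Psmb3, Psmb7, Psmc3, Psmc3ip, Psmd1, Psmd2, Psmd13, Psme2 and Psme2b. Exon positions of 13 genes are shared with another annotated gene, on the same strand in 4 and the opposite strand in 10. Same-strand cases include Psmb5 (with Mir686), Psmd1 (Gm21972) and Psmg3 (Gm26938). Opposite-strand cases include Psmd1 (Htr2b), Psmd3 (Gm12356) and Psme1 (Emc9). Counts of Psmb5, Psmd3, Psme1 and Psmg3 were whole numbers in all 4 libraries. Every interval included 0, so differences of the size that each interval spans were not resolved with 2 libraries per genotype. In counts simulated with 1 common spread for all genes and no GC trend or replicate effect, the same test recovered 59% of 2-fold changes. The simulation gave 163 calls, against 10 higher and 6 lower in the measured counts, so its adjusted threshold was less strict. Its changed genes were not picked at proteasome levels, so the 59% need not hold for these genes. The 48 proteasome genes took 0.599% and 0.563% of all counts in WT replicates 1 and 2, and 0.602% and 0.520% in Batf3-/- replicates 1 and 2.

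**Figure D1:**
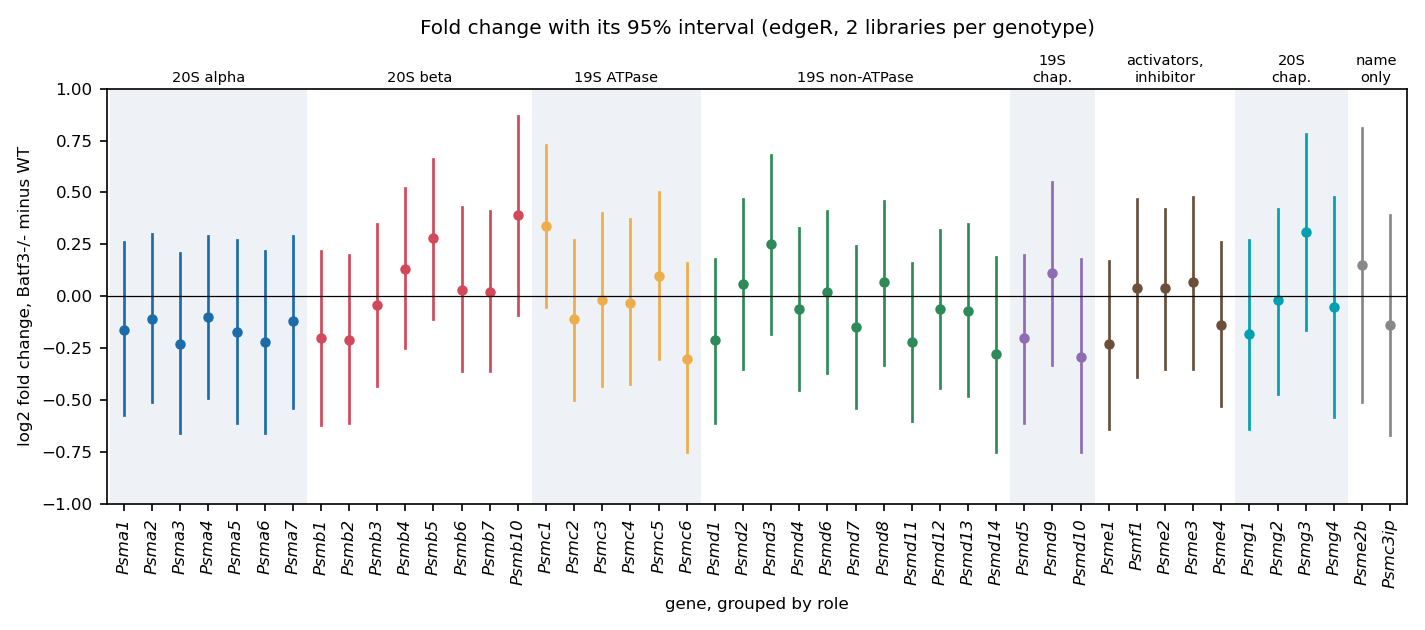
Log2 fold change (Batf3-/- minus WT, vertical axis) of each of the 46 tested genes, grouped by role along the horizontal axis. Points are edgeR estimates and bars their 95% intervals. Every interval includes 0, and all lie between -0.75 and 0.87.

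Promoter sequences are shown for the 20S and 19S subunit genes with the lowest and highest log2 fold change, and for Psmb5, which holds both AP-1 and antioxidant response element letters. They come from RefSeq on GRCm38.p6, 5′ to 3′ on the gene's strand, and span 300 bases around the annotated start, most of them before it. Capitals mark matches, on either strand, to the AP-1 motif TGANTCA, the antioxidant response element core TGACNNNGC or the CCAAT box. Psma3 (chr12:70974373-70974672, plus strand) and Psmb10 (chr8:105938343-105938642, minus strand) are the 20S pair. Psmc6 (chr14:45329574-45329873, plus strand) and Psmc1 (chr12:100109952-100110251, plus strand) are the 19S pair, and Psmb5 lies at chr14:54617946-54618245 on the minus strand.
Psma3: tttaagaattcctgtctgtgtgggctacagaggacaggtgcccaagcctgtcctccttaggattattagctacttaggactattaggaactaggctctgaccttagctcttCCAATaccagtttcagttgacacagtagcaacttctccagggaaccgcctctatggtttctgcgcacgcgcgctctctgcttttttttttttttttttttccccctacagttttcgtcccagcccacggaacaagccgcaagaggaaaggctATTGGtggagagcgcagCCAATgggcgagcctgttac
Psmb10: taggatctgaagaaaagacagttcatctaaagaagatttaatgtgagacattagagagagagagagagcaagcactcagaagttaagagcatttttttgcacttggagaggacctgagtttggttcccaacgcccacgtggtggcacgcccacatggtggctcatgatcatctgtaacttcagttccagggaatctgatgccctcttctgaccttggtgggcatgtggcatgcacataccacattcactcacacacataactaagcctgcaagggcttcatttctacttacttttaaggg
Psmc6: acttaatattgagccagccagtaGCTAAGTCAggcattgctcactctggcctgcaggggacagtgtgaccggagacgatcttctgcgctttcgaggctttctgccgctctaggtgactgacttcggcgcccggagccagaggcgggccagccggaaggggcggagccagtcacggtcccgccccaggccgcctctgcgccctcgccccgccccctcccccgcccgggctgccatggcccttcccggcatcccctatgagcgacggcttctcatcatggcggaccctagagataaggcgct
Psmc1: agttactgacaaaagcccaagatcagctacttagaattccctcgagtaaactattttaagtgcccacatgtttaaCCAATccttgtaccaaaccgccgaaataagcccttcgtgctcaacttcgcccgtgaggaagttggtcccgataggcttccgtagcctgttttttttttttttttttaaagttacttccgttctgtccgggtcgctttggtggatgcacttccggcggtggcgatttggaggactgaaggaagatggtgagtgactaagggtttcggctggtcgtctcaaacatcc
Psmb5: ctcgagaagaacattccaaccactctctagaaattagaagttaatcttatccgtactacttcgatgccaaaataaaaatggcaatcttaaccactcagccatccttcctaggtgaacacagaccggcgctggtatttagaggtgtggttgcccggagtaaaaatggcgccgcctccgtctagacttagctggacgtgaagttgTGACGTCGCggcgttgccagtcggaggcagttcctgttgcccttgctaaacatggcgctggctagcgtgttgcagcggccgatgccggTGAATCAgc
The AP-1 letters of Psmb5 lie near the 3′ end of its window, in the transcribed part, and its antioxidant response element letters lie before the start. Psma3 holds 3 CCAAT boxes and Psmc1 holds 1, Psmc6 holds 1 antioxidant response element core, and the Psmb10 window holds none of these letters. Of the 48 genes, 40 matched a promoter entry, with 43 windows. TGANTCA was in 2 of the 43 windows (4.65%, in Psmb5 and Psmd9), against 7.81% of all 32851 windows of this length. TGACNNNGC was in 6 of 43 (14.0%, in Psmb5, Psmb6, Psmc6, Psmd9, Psmd12 and Psme4), against 12.4% of all windows. CCAAT was in 14 of 43 (32.6%), against 37.4%. These are matches of letters only and do not show binding.

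The 20S alpha ring genes encode the outer rings whose tails gate the entrance to the core. All 7 tested members had negative log2 fold changes, from -0.23 (Psma3) to -0.10 (Psma4), with a median of -0.16, and none passed the test; all 7 stayed negative with DESeq2's size factors and with upper-quartile scaling. Without WT replicate 1 the median was 0.06 and 1 of 7 was negative, and without Batf3-/- replicate 2 it was -0.03 with 7 negative. Over all genes tested 51.6% were negative. In every alpha ring gene WT replicate 1 was the highest library and Batf3-/- replicate 2 the lowest, while Batf3-/- replicate 1 lay above WT replicate 2, so the genotypes overlapped. Summed over the 7 genes the WT libraries reached 1414 and 1078 CPM and the Batf3-/- libraries 1208 and 1029 CPM (replicate 1 first). The ratio to WT was below 1 for all 7 within both replicate numbers, with median log2 ratios of -0.23 in replicate 1 and -0.06 in replicate 2.

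Psma3, the alpha subunit with the lowest value, stood at 233 and 160 CPM in WT and 183 and 153 CPM in Batf3-/- cells (replicates 1 and 2 in each case). These were 196 ± 51.4 and 168 ± 20.7 CPM (mean ± SD, n = 2; log2 fold change -0.23, SE 0.208, edgeR adjusted p = 0.958). WT replicate 1 alone was high. Psma4 was the alpha subunit with the smallest difference, at 205 and 183 CPM in WT and 188 and 173 CPM in Batf3-/- (log2 fold change -0.10, SE 0.187, edgeR adjusted p = 0.972). Psma8, a germ-cell form of an alpha subunit, was too low to test, with 4 and 3 counts in WT against 8 and 3 in Batf3-/-. A count of 0 allows up to 3 counts (counting error only), which WT replicate 2 and Batf3-/- replicate 2 met and the other two libraries passed. The highest level was 0.252 CPM in Batf3-/- replicate 1, where 3 counts are 0.0965 CPM.

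**Figure D2:**
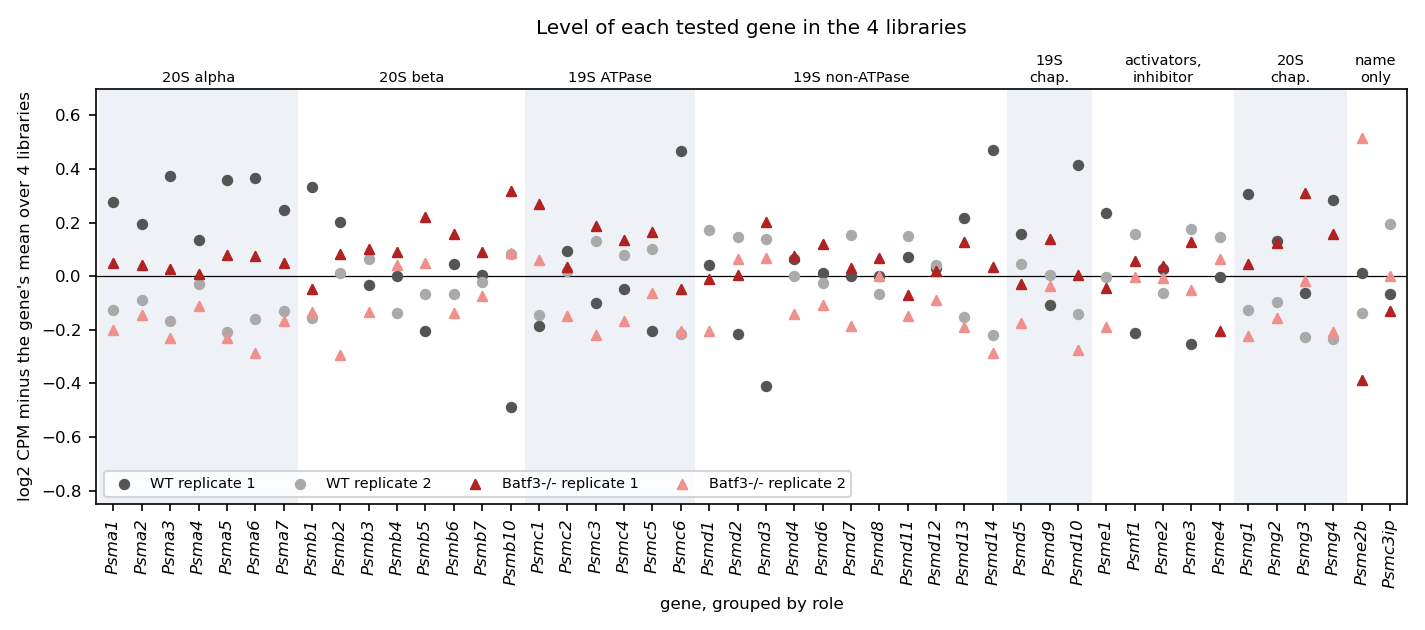
Level of each tested gene in each library, as log2 CPM minus the gene's mean over the 4 libraries (vertical axis), with genes grouped by role. Grey circles are WT and red triangles Batf3-/- libraries, the darker shade being replicate 1. WT replicate 1 is the top point in all 7 alpha ring genes, and Batf3-/- replicate 2 is the lowest point in 27 of the 46 genes.

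The 20S beta ring genes did not share 1 direction: log2 fold changes were positive in 5 of 8 tested members and negative in 3, with a median of 0.03 and none past the threshold. Psmb5, the chymotrypsin-like catalytic subunit, stood at 74.5 and 81.9 CPM in WT and 100 and 88.8 CPM in Batf3-/- cells. Both Batf3-/- libraries lay above both WT libraries (log2 fold change 0.28, SE 0.185, edgeR adjusted p = 0.958), and the log2 ratios were 0.43 within replicate 1 and 0.12 within replicate 2. After a correction for transcript GC content its log2 fold change was 0.08. Psmb6, the caspase-like subunit, stood at 98.1 and 90.6 CPM in WT and 106 and 86.3 CPM in Batf3-/- cells, so the libraries overlapped (log2 fold change 0.03, SE 0.189). Psmb7, the trypsin-like subunit, was similar at 151 and 148 CPM in WT and 160 and 143 CPM in Batf3-/- (log2 fold change 0.02, 95% interval -0.36 to 0.41).

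Psmb10 encodes the immunoproteasome subunit that takes the place of Psmb7. It had the highest log2 fold change of all 46 genes, 0.39 (SE 0.230, 95% interval -0.09 to 0.87, edgeR adjusted p = 0.958). Its level was 15.9 and 23.6 CPM in WT and 27.8 and 23.7 CPM in Batf3-/- cells, from 370, 648, 884 and 367 counts. WT replicate 1 was low and the other 3 libraries lay close together, so that replicate 1 gave a log2 ratio of 0.81 and replicate 2 gave 0.01. The GC-corrected log2 fold change was 0.20. Per kb of coding length, Psmb10 RNA was 10.7% and 16.2% of Psmb7 RNA in WT replicates 1 and 2 and 17.7% and 16.8% in Batf3-/- replicates 1 and 2. Both Batf3-/- libraries lay above both WT libraries in this ratio, though the 3 libraries other than WT replicate 1 spanned only 16.2% to 17.7%. No test of the ratio was run.

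Among the structural beta subunits, Psmb4 had separate libraries, with 175 and 159 CPM in WT and 186 and 180 CPM in Batf3-/- (log2 fold change 0.13, SE 0.185). Psmb2 had the lowest value of the ring, with 161 and 141 CPM in WT and 148 and 114 CPM in Batf3-/- (log2 fold change -0.21, SE 0.195). Psmb1 was close to it at -0.20, with WT replicate 1 alone high, and Psmb3 stood at -0.04. Psmb11, the form used by thymic cortical epithelium, was not tested: its only counts were 5 in WT replicate 1.

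The 19S ATPase genes encode the ring that unfolds substrates. Log2 fold changes were positive in 2 and negative in 4 of the 6 genes (median -0.02), and none passed the test. Psmc1 had the smallest p-value of all proteasome genes: 91.9 and 94.4 CPM in WT and 126 and 109 CPM in Batf3-/- cells, from 2144, 2590, 4016 and 1689 counts. Both Batf3-/- libraries lay above both WT libraries, by a mean of 1.27-fold (log2 fold change 0.34, SE 0.185, unadjusted p = 0.0821, edgeR adjusted p = 0.958). Its log2 ratios were 0.46 within replicate 1 and 0.21 within replicate 2, and the GC-corrected log2 fold change was 0.35. Psmc1 lies on GRCm38 chromosome 12 from 100110154 to 100123405 and is protein coding.

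Psmc6, on chromosome 14 from 45329788 to 45349705, had the lowest log2 fold change of all 46 genes. It stood at 265 and 165 CPM in WT and 185 and 166 CPM in Batf3-/- (log2 fold change -0.30, SE 0.217, edgeR adjusted p = 0.958), with WT replicate 1 alone high. Replicate 1 gave a log2 ratio of -0.52 and replicate 2 one of 0.00, and the GC-corrected log2 fold change was -0.01. Without WT replicate 2 it was the 1 proteasome gene that edgeR called (log2 fold change -0.60, adjusted p = 0.0394). In that fit the only WT library was the one with the high value, and 2.43% of all 12391 genes were called higher and 2.03% lower, so 1 of 46 is near the background. The other ATPases Psmc2, Psmc3, Psmc4 and Psmc5 lay between -0.11 and 0.10, and all 4 overlapped between genotypes.

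The 19S non-ATPase genes include the scaffold, the ubiquitin receptors and the deubiquitinase of the cap. Log2 fold changes were positive in 4 and negative in 7 of 11 tested genes (median -0.06), and none passed the test. Psmd14, the deubiquitinase that removes ubiquitin chains as the substrate enters, had the lowest value: 210 and 130 CPM in WT and 155 and 124 CPM in Batf3-/- (log2 fold change -0.28, SE 0.222, edgeR adjusted p = 0.958). WT replicate 1 was high, and WT replicate 2 lay within the Batf3-/- range. Psmd3, a lid subunit, had the highest value, with 125 and 183 CPM in WT and 191 and 174 CPM in Batf3-/- (log2 fold change 0.25, SE 0.205, edgeR adjusted p = 0.958). Here WT replicate 1 was low, and replicate 1 gave a log2 ratio of 0.62 while replicate 2 gave -0.07.

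The large base subunit Psmd2 stood at 245 and 315 CPM in WT and 286 and 298 CPM in Batf3-/- (log2 fold change 0.06, SE 0.195), with both Batf3-/- libraries inside the WT range. Psmd4, a ubiquitin receptor, stood at 142 and 136 CPM in WT and 143 and 123 CPM in Batf3-/- (log2 fold change -0.06, SE 0.185). Psmd1, Psmd11 and Psmd12 were lower in both Batf3-/- libraries than in both WT libraries. For Psmd11, a lid subunit, these were 147 and 155 CPM in WT and 133 and 126 CPM in Batf3-/- (log2 fold change -0.22, SE 0.183, GC-corrected -0.03). For Psmd1, the other large base subunit, they were 166 and 182 CPM in WT and 160 and 140 CPM in Batf3-/- (log2 fold change -0.21, SE 0.187, GC-corrected -0.15). The Psmd12 difference was -0.06 on the log2 scale.

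The 19S assembly chaperones Psmd5, Psmd9 and Psmd10 hold ATPase subunits before they join the ring. Psmd5 was lower in both Batf3-/- libraries, with 48.4 and 44.8 CPM in WT and 42.5 and 38.5 CPM in Batf3-/- (log2 fold change -0.20, SE 0.194). Psmd10, which is X-linked, stood at 41.5 and 28.2 CPM in WT and 31.2 and 25.7 CPM in Batf3-/- (log2 fold change -0.29, SE 0.223). Both of its replicate 1 libraries, those nearly without Xist, lay above the replicate 2 library of the same genotype; the part of sex-linked expression in this was not tested. Psmd9 had the highest value of the 3, at 19.9 and 21.5 CPM in WT and 23.6 and 20.9 CPM in Batf3-/- (log2 fold change 0.11, SE 0.211).

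The 20S assembly chaperones Psmg1 to Psmg4 act in pairs to build the alpha ring. Psmg3 was higher in both Batf3-/- libraries, with 15.8 and 14.1 CPM in WT and 20.5 and 16.3 CPM in Batf3-/- (log2 fold change 0.31, SE 0.225, edgeR adjusted p = 0.958). Psmg4, its partner, was counted 330 and 270 times in WT and 410 and 155 times in Batf3-/-, with overlap after scaling (log2 fold change -0.05, SE 0.254). Psmg1 had 35.5 and 26.3 CPM in WT and 29.6 and 24.6 CPM in Batf3-/- (log2 fold change -0.18, SE 0.216). Its partner Psmg2 was counted 608 and 612 times in WT and 826 and 331 times in Batf3-/-, again with overlap after scaling (log2 fold change -0.02, SE 0.213). As CPM, the replicate 1 library was the higher one for all 4 genes and in both genotypes.

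Of the genes that regulate the core, Psme1 and Psme2 encode the paired subunits of the interferon-inducible activator that opens the alpha ring. Psme1 (chromosome 14, 55578123 to 55581529) stood at 353 and 299 CPM in WT and 291 and 263 CPM in Batf3-/- cells. Both Batf3-/- libraries lay below both WT libraries (log2 fold change -0.23, SE 0.192, edgeR unadjusted p = 0.238, adjusted p = 0.958). After the GC correction it was at -0.43 with an unadjusted p of 0.0316 in edgeR, which did not pass after adjustment. The GC content used was that of the longest Psme1 transcript (1986 bases), not of its longest protein-coding one (1112 bases). Its neighbour Psme2 stood at 132 and 124 CPM in WT and 133 and 129 CPM in Batf3-/- cells, so the libraries overlapped (log2 fold change 0.04, SE 0.182). Per kb of coding length, Psme2 RNA was 38.9% and 43.1% of Psme1 RNA in WT replicates 1 and 2 and 47.5% and 51.2% in Batf3-/- replicates 1 and 2. The groups did not overlap in this ratio, which was chosen after the values were seen. With 2 against 2 libraries the smallest two-sided p of an exact permutation test is 0.333, so that test could not pass the threshold, and no other test of the ratio was run.

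The Psme2 values are uncertain because reads are shared with Psme2b, a copy on chromosome 11. Estimated counts were 3075.14 and 133.86 for the pair in WT replicate 1, and the pair summed to a whole number of reads in each library (3209, 3536, 4355 and 2127 in WT 1, WT 2, Batf3-/- 1 and Batf3-/- 2). Psme2b stood at 5.74 and 5.18 CPM in WT and 4.35 and 8.14 CPM in Batf3-/- cells. Psme3, the nuclear homologue of these activators, stood at 138 and 186 CPM in WT and 180 and 159 CPM in Batf3-/- (log2 fold change 0.07, SE 0.198). Psme4, a large nuclear activator, had 130 and 144 CPM in WT and 113 and 136 CPM in Batf3-/- (log2 fold change -0.14, SE 0.188). Psmf1, described as an inhibitor of the core, had 30.6 and 39.6 CPM in WT and 36.9 and 35.4 CPM in Batf3-/- (log2 fold change 0.04, SE 0.205). All 3 overlapped between genotypes. Psmc3ip matches the symbol rule by name but encodes a partner of meiotic recombinases; it had 8.27 and 9.92 CPM in WT and 7.92 and 8.67 CPM in Batf3-/- cells.

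Counted over all 46 tested genes, 5 had both Batf3-/- libraries above both WT libraries (Psmb4, Psmb5, Psmb10, Psmc1 and Psmg3) and 5 had both below (Psmd1, Psmd5, Psmd11, Psmd12 and Psme1). These are 10.9% in each direction, against 18.2% of all tested genes with Batf3-/- higher and 15.6% with Batf3-/- lower. Log2 fold changes were positive in 17 of the 46 genes and negative in 29 (63.0%, against 51.6% of all tested genes). Without WT replicate 1 the split was 26 positive, and the median became 0.03. The log2 ratio was negative in 25 genes within replicate 1 (54.3%, against 51.3% of all tested genes, median -0.03). Within replicate 2 it was negative in 35 (76.1%, against 49.5% of all tested genes, median -0.08). Both replicate numbers gave a median close to 0, but single genes differed: Psmc3 stood at 0.30 and -0.35, Psme3 at 0.39 and -0.23, and Psmc5 at 0.37 and -0.17 in replicates 1 and 2.

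**Figure D3:**
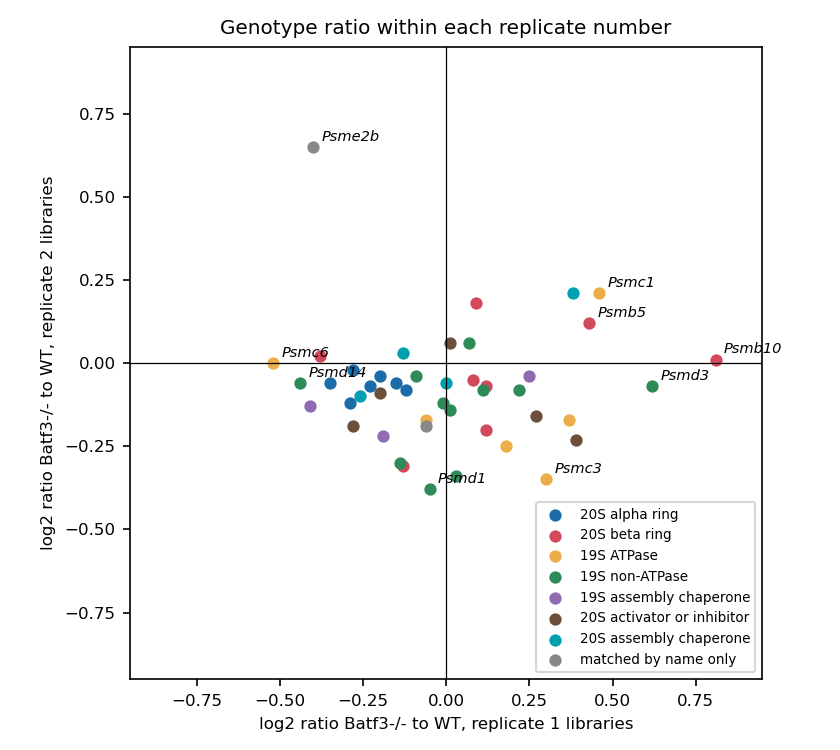
Log2 ratio of Batf3-/- to WT within the replicate 1 libraries (horizontal axis) and within the replicate 2 libraries (vertical axis), 1 point per tested gene, coloured by role. The 7 alpha ring genes lie in the lower left part, and Psmb10 (0.81 and 0.01) and Psmc6 (-0.52 and 0.00) lie near the horizontal axis.

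The levels also differed by replicate number. In 27 of 46 genes (58.7%) the replicate 1 library was the higher one in both genotypes, against 29.1% of all tested genes. Batf3-/- replicate 1 lay above Batf3-/- replicate 2 in 42 genes (91.3%, against 50.9% of all tested genes), with a median log2 difference of 0.20. WT replicate 1 lay above WT replicate 2 in 28 (60.9%, against 49.2% of all tested genes), with a median of 0.08. Batf3-/- replicate 2, which was also the least deeply sequenced, was the lowest library for 27 genes (58.7%, against 22.6% of all genes). The part of depth in this was not tested. In a fit with genotype and replicate number as terms, chosen after these values were seen, the median log2 difference (replicate 2 minus replicate 1) was -0.11, beside 0.01 over all genes. None of the 46 genes passed in that comparison, where 0.536% of all genes were called lower and 0.206% higher by edgeR. At an unadjusted p under 0.05, 6 were lower and 0 higher in replicate 2, against 6.16% of all genes lower. These 6 were Psmd14, Psma6, Psma5, Psmc6, Psma3 and Psmd10. Psmd14 had the smallest p-value (log2 difference -0.51, edgeR adjusted p = 0.180). With 1 residual degree of freedom the spread of most genes was treated as known in that fit. With replicate number as the only term, edgeR called 0 of the genes and gave 5 an unadjusted p under 0.05.

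Fold changes followed the GC content of the transcripts. Across the 46 genes, Spearman's rho between the GC content of the longest transcript and the log2 fold change was 0.50 (Pearson's r 0.51), beside 0.58 over the 12105 tested genes with a transcript. Genes of 1 set of libraries are not independent, so these are descriptions. The rho was 0.49 within replicate 1 and 0.15 within replicate 2. The alpha ring genes had a median GC of 45.0%, against 49.8% over all genes. With offsets for each library's trend on GC content, their median log2 fold change went from -0.16 to -0.02, with 2 of 7 positive, and that of all 46 proteasome genes from -0.06 to -0.02. The range after correction was -0.43 (Psme1) to 0.35 (Psmc1), and none was called. For some genes the longest transcript was not the longest protein-coding one. Examples are Psme1 (1986 against 1112 bases), Psmb7 (2849 against 1160) and Psmc2 (3466 against 1785). Correction by the GC content of the protein-coding transcript was not tested.

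**Figure D4:**
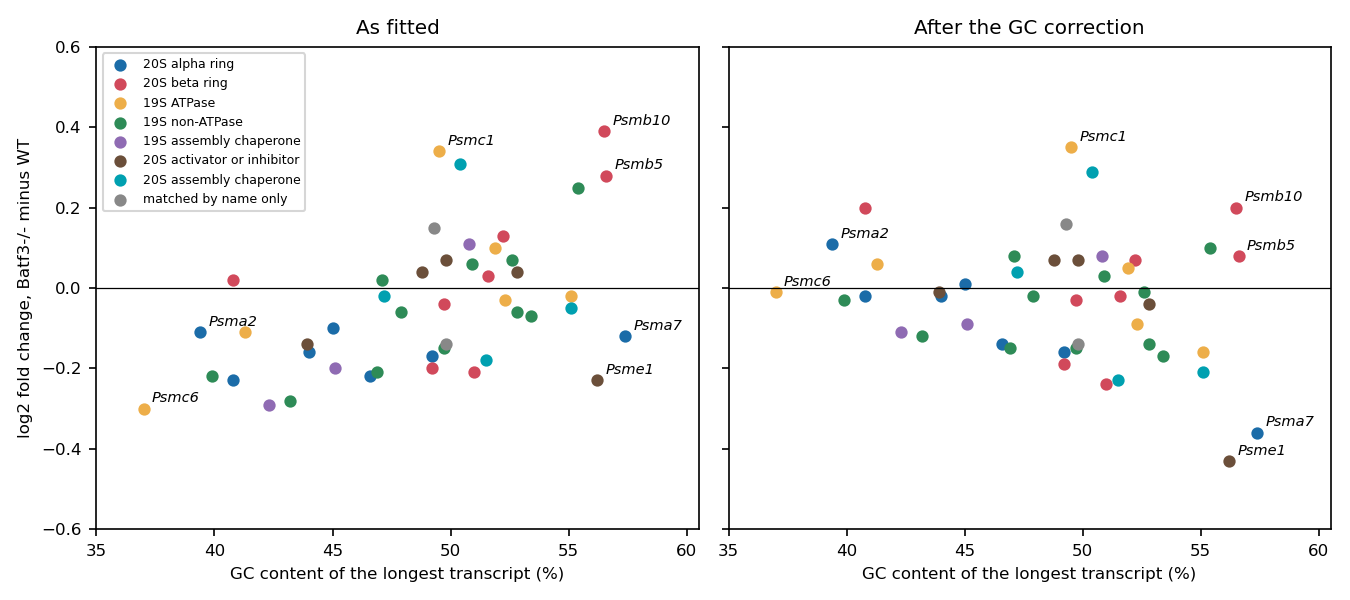
Log2 fold change (vertical axis) against GC content of the longest transcript in percent (horizontal axis), 1 point per tested gene coloured by role, as fitted (left) and after the GC correction (right). Psmc6, at 37.0% GC, goes from -0.30 to -0.01, while Psmc1 stays at 0.34 and 0.35.

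Levels of different genes are compared as CPM per kb of the longest protein-coding transcript (GENCODE M21), over the mean of the 4 libraries. The 14 constitutive 20S core genes had a median of 134 CPM per kb and ranged 2.57-fold, from 64.0 (Psma3) to 164 (Psmb2). The 17 subunit genes of the 19S cap had a median of 67.2 CPM per kb and ranged 3.47-fold, from 48.6 (Psmd6) to 169 (Psmd8). Per kb of coding length these medians were 210 and 100, the 20S range ran from 109 (Psmb5) to 380 (Psmb1) and the 19S range from 56.8 (Psmd1) to 316 (Psmd8). The 20S median thus lay above the 19S median with either length, while the order of single genes depended on the length used.

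The medians of both particles overlapped between the genotypes. The 20S median was 150 and 124 CPM per kb of transcript in WT and 135 and 119 in Batf3-/- replicates 1 and 2. The 19S median was 64.9 and 70.7 in WT and 79.4 and 63.7 in Batf3-/- cells. As means of the 4 libraries, Psme1 was first of the 46 genes with either length, at 404 CPM per kb of coding length. In these means the assembly chaperones stood below all constitutive core and cap genes. They lay between 28.8 (Psmd5) and 45.7 (Psmd10) CPM per kb of coding length. Single libraries were less separate: in WT replicate 1, Psmd10 at 59.9 lay above Psmc5 (55.5), Psmd1 (58.1) and Psmd6 (58.2). Psmb10, at 27.8, was the lowest 20S subunit among those tested, below Psmb5 at 109, Psmb6 at 134 and Psmb7 at 181.

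**Figure D5:**
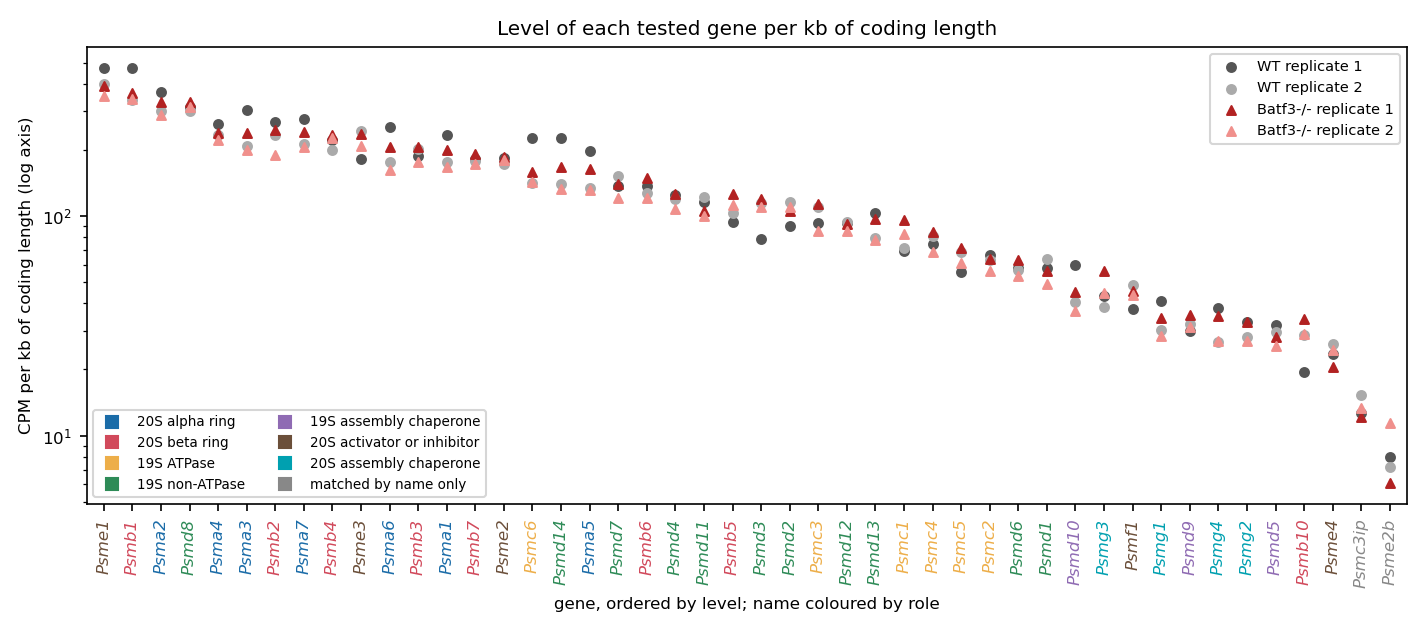
CPM per kb of coding length (log axis) of each tested gene in each library, ordered by the mean level, with gene names coloured by role. As means of the 4 libraries, constitutive core and cap subunits lie between 56.8 (Psmd1) and 380 (Psmb1). The mean of Psmb10 is 27.8, and the means of the assembly chaperones are at most 45.7. Points of single libraries overlap, with Psmd10 at 59.9 and Psmd1 at 58.1 in WT replicate 1. Within most genes the 4 libraries lie close together.

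Genes that work with the proteasome were described in the same way. Of 31 partner genes found in the table, all tested, 0 were called, beside 0.0824% called higher and 0.0494% lower over all tested genes. Log2 fold changes were positive in 13 and negative in 18 (58.1%, against 51.6% of all tested genes), with a median of -0.03. Both Batf3-/- libraries lay above both WT libraries in 4 partners (12.9%, against 18.2% of all tested genes). They lay below both in 6 (19.4%, against 15.6%). Midn, which encodes midnolin, a protein that brings nuclear proteins to the proteasome, had the smallest p-value. It stood at 85.3 and 129 CPM in WT and 149 and 160 CPM in Batf3-/- (log2 fold change 0.53, SE 0.207, edgeR unadjusted p = 0.0189, adjusted p = 0.872). Both Batf3-/- libraries lay above WT, and the GC-corrected log2 fold change was 0.24. Bag6, a chaperone for mislocalized proteins, was at 131 and 173 CPM in WT and 205 and 197 CPM in Batf3-/- (log2 fold change 0.40, GC-corrected 0.09). Adrm1, a ubiquitin receptor of the cap, was at 41.7 and 62.2 CPM in WT and 77.4 and 60.7 CPM in Batf3-/- (log2 fold change 0.41), with overlap. Without WT replicate 2, so with WT replicate 1 as the only WT library, log2 fold changes were 0.86 (Midn), 0.73 (Adrm1) and 0.62 (Bag6). Without WT replicate 1 they were 0.26, 0.14 and 0.21.

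Uba6, an E1 enzyme that activates ubiquitin, was at 79.9 and 75.6 CPM in WT and 57.1 and 64.3 CPM in Batf3-/- cells, separate but not past the threshold (log2 fold change -0.36, edgeR adjusted p = 0.958, GC-corrected -0.11). Nfe2l1, the transcription factor of the subunit genes, stood at 97.6 and 142 CPM in WT and 121 and 134 CPM in Batf3-/- (log2 fold change 0.09, SE 0.203). Both Batf3-/- libraries lay inside its WT range. Pomp, which acts in assembly of the core, stood at 164 and 129 CPM in WT and 157 and 145 CPM in Batf3-/- (log2 fold change 0.04, SE 0.192). Here too both Batf3-/- libraries lay inside the WT range.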

How the data were processed

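The deposited table holds expected counts per gene, estimates by the authors that divide reads shared between genes and need not be whole. They used STAR 2.5.0 and RSEM 1.2.25 with the GRCm38 build, according to the submitters' processing notes. Neither annotation release nor strand setting is given in the sources used here, which leaves overlapping genes and close copies uncertain. Per the labels' protocols, libraries were stranded and poly-A selected. The 92 spike-in rows were 0 in all libraries and left out.

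Counts were rounded, then tested with edgeR 4.0.16 (R 4.3.3), using filterByExpr (minimum count 10, total 15), TMM scaling (factors 0.982 to 1.02), robust quasi-likelihood fit with genotype as the only term, two-sided, Benjamini-Hochberg adjustment over 12135 genes at 0.05. The biological coefficient of variation was 0.171. SE is the log2 fold change divided by the square root of F, and 95% intervals use the test's degrees of freedom. CPM are TMM-normalized; log2 ratios within a replicate number use a prior count of 0.5. In simulated counts of the Batf3-/- against WT comparison (12130 genes), edgeR called 59% of the 2-fold and 98% of the 4-fold changes. Of its 163 calls 6 were false, and its intervals covered 95.1% of true values. Every simulated gene had the same biological coefficient of variation, and no GC trend, replicate effect or outlying library was built in. The cover therefore need not hold for the measured counts.

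Alternatives were upper-quartile scaling, scaling by DESeq2's size factors, testing unfiltered genes or those with 1 CPM in 2 libraries, DESeq2 1.42.0, limma-voom 3.58.1, legacy=TRUE, leaving out each library, a block on replicate number, and a GC correction (each library's loess trend, span 0.5, on the GC content of the longest GENCODE M21 transcript; 12105 genes matched). The replicate contrast, the Psme2 to Psme1 ratio and the sex-linked genes were chosen after values were seen. Values were printed for genes at the extremes of each role group, for catalytic subunits, receptors, activators, chaperones, untested genes and genes with separate libraries; partners were the 4 with the smallest p, Nfe2l1 and Pomp. The members and lists were chosen with earlier results of these data known.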

Additional observations from a re-analysis of the deposited data

How the results depend on the processing

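The count of proteasome genes called stayed at 0 higher and 0 lower under 13 of the 14 other settings; without WT replicate 2 it was 0 higher and 1 lower. The number with a positive log2 fold change was 17 with all libraries and 12 to 26 with 1 library left out, and the median -0.06 became -0.17 to 0.03. Over all genes, 10 were called higher and 6 lower with all libraries, 11 to 301 higher and 7 to 252 lower with 1 library left out (the highest counts without WT replicate 2), and 21 higher with DESeq2's Wald test. With the replicate block 81 were higher and 31 lower, and with the block and the GC correction together 48 and 31. In both fits edgeR called 0 proteasome genes (smallest adjusted p 0.578 and 0.402). It gave 1 and 3 of them an unadjusted p under 0.05. Same-numbered libraries share a title prefix, but the labels do not say that it marks a shared animal or batch. Same-numbered libraries also matched in Xist, at 0.214 (WT) and 0.0944 CPM (Batf3-/-) in replicate 1. In replicate 2 it stood at 166 (WT) and 144 CPM (Batf3-/-). The correlation was 0.11 between the deviations of same-numbered libraries over all genes and 0.22 over the proteasome genes. Of 52 single genes (46 proteasome genes and 6 partners), 33 changed sign under at least 1 setting, as values near 0 do. The 20S median per kb was 134 per transcript, 210 per coding length and 107 per longest transcript of any kind, and the 19S median was 67.2 and 100 for the first 2. Psma8 and Psmb11 had too few counts to be tested. Standard errors reached 0.316 for Psme2b, a gene of low count, against a median of 0.195, and counting error was not separated from spread.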
